A study of Mus musculus with 4 samples.

Results

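The subject is the gene Eef1a1, its processed copy Gm13456 and 6 further genes of translation elongation (Eef1b2, Eef1d, Eef1g, Eef1e1, Eef2 and Eef2k) in cultured mouse embryonic stem cells (mESC) that have or lack B-type lamins. These 8 genes were found by symbol among 37991 gene rows, and all 8 passed the filter on low counts. RNA sequencing libraries were made from cells null for both B-type lamins (dKO, replicates 1 and 2) and from wild-type cells (wt, replicates 1 and 2). Every library carried the strain label ZHBTc4, an embryonic stem cell line known for an Oct4 transgene that tetracycline shuts off; the labels name no other allele and no drug. The labels do not say whether a genotype is 1 line or several, so an effect of lamin loss and a difference between lines cannot be told apart. The replicates are called biological, with no word on whether they came from separate cultures, and p-values then measure the spread between these libraries, which may be technical. In bulk RNA, fewer cells that express a gene and less RNA per cell cannot be told apart.

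In translation elongation, eEF1A carries each aminoacyl-tRNA to the ribosome as a GTPase, and the eEF1B complex recharges it with GTP. eEF2, also a GTPase, then moves the ribosome along the messenger RNA, and the kinase eEF2K slows it by phosphorylation. The messenger RNAs of eEF1A1, eEF1B subunits and eEF2 belong to the abundant class with a 5′ terminal oligopyrimidine (TOP) tract, whose translation depends on mTOR. A processed pseudogene is a copy of a messenger RNA that was reverse-transcribed and inserted elsewhere in the genome, without introns and usually without the promoter of its parent.

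Gm13456 was chosen because its level differed between genotypes, so its difference is described here without a test. The other 7 genes were chosen by name, with earlier results of these data known. Lmnb1 had 69 and 101 counts in the dKO libraries and 8538 and 8321 in the wt libraries, and Lmnb2 had 41 and 55 in dKO and 1343 and 1787 in wt, so the libraries match their labels. All 10 embryonic stem cell markers were detected, with a summed CPM of 6260 and 6765 in dKO and 5607 and 5692 in wt libraries. Of these 10, 4 had a positive and 6 a negative log2 difference. Pou5f1 had 789 and 821 CPM in dKO and 875 and 750 CPM in wt libraries. Higher in dKO were Esrrb (885 and 1003 CPM, against 711 and 806 in wt) and Klf4 (192 and 242 CPM, against 136 and 155 in wt). Lower in dKO were Utf1 (275 and 243 CPM, against 305 and 293 in wt) and Dppa5a (705 and 745 CPM, against 751 and 836 in wt). The largest difference of the list, and so a large part of the higher sum in dKO, was that of Zfp42. Zfp42 had 1447 and 1433 CPM in dKO and 665 and 613 CPM in wt libraries (log2 difference 1.17, SE 0.12, edgeR adjusted p = 0.0886); the part of such differences in the results was not tested. CPM are counts scaled to a common library size, with TMM factors. The summed CPM of 8 fibroblast markers was 6.93 and 7.33 in dKO and 9.29 and 10.4 in wt libraries, and that of 8 blood and immune markers was 154 and 225 in dKO and 131 and 137 in wt. Of the blood list, Laptm5 had 135 and 198 CPM in dKO and 104 and 116 CPM in wt, and Cd68 16.3 and 21.5 CPM in dKO and 22.1 and 16.2 CPM in wt; Tyrobp was at 0 in all libraries, and the part of such cells in the results was not tested. Total counts were 12899964 to 16697970 per library.

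Gm13456 lies on chromosome 2 (40411272 to 40412636 in the positions of the count table, whose build is not given in the sources used here). GENCODE M21 annotates it as a processed pseudogene of 1 exon and 1365 bases. By M21 positions it overlaps no other gene that has a row of counts. Overlap with M21 genes that have no row was not checked. Its closest protein-coding transcript was that of Eef1a1 (chromosome 9, 78326256 to 78336958 in the table). It matched that transcript at 1345 bases and differed by 19 substitutions (98.6% identity without gaps), 1 deletion of 25 bases and 1 inserted base. It spans positions 121 to 1509 of the Eef1a1 transcript of 1794 bases, the whole coding sequence of 462 codons, as annotated.

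The first stretch below holds the 25-base deletion, which falls in the sequence that encodes the GTP-binding P-loop of eEF1A. It is shown because it separates Gm13456 from its parent and from Gm6767, another copy, described further on. Positions are counted from 1 at the 5′ end of the Eef1a1 transcript and run here from 141 to 210. Capitals mark the bases of Eef1a1 that Gm13456 lacks or has changed, and in each copy the bases that differ from Eef1a1.
Eef1a1: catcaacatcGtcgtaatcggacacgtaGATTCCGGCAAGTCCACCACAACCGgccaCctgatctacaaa
Gm13456: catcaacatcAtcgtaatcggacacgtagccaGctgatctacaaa
Gm6767: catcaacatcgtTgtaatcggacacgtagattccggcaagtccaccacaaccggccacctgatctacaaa
The second stretch, positions 1041 to 1090, holds 3 of the 19 substitutions (A1058C, C1067T and A1072T; the base of Eef1a1 first, its position, then the base of Gm13456) and is shown because it ends the reading frame of the copy.
Eef1a1: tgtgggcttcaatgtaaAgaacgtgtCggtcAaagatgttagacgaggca
Gm13456: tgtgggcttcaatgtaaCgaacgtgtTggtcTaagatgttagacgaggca
Gm6767: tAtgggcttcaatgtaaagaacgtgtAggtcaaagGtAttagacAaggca
In GRCm38 the Gm13456 stretches are chr2:40555772-40555816 and chr2:40556647-40556696, both on the plus strand, and those of Gm6767 are chr16:51363742-51363811 and chr16:51362869-51362918, both on the minus strand.

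Gm13456 keeps the start codon of the parent, but the deletion shifts the frame after it. The longest open frame of Gm13456 has 269 codons, from parent codon 49 to 317, and A1072T makes codon 318 a stop. The copy as annotated has no open frame that spans the parent's coding sequence. Of the 1316 windows of 50 bases in Gm13456, 647 (49.2%) are also found letter for letter in an Eef1a1 transcript, and 560 (42.6%) in no other M21 transcript. Reads from these 560 windows could be told from those of every other annotated transcript at that length. How long the reads were, and how reads with several matches were treated, is not given in the sources used here, so counts of Eef1a1 and of all its copies are uncertain.

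**Figure D1:**
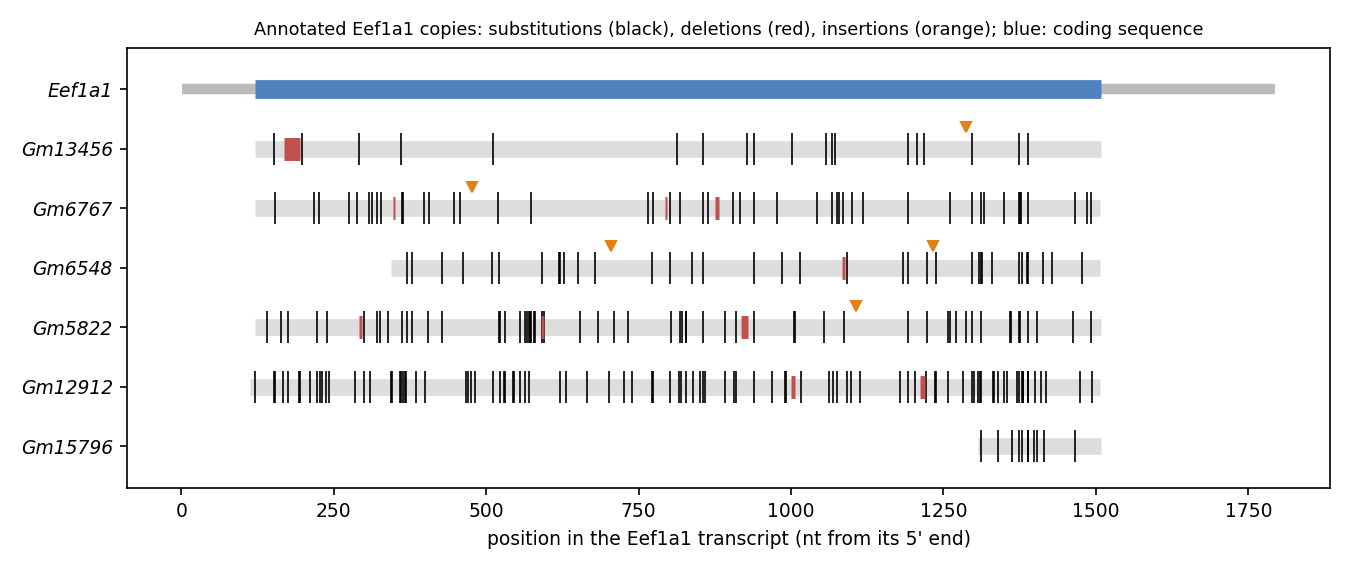
Differences of the 6 annotated Eef1a1 copies with a row of counts from the Eef1a1 transcript, by position in that transcript in nucleotides; black ticks are substitutions, red blocks deletions (drawn at least 4 nucleotides wide), orange triangles insertions and the blue bar the coding sequence. Gm13456 has 19 substitutions and Gm6767 has 47; Gm15796 covers only the end of the coding sequence.

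Gm13456 was abundant in both dKO libraries and close to absent from both wt libraries. Its counts were 1470 and 1242 in dKO and 16 and 17 in wt libraries. This corresponds to 82.1 ± 11.4 CPM in dKO cells and 1.18 ± 0.094 CPM in wt cells (SD, n = 2 each), 69.4-fold higher in dKO cells. On the log2 scale the fitted difference was 6.11 (dKO minus wt). Under 11 alternative fits this value lay between 5.97 and 6.25. Set against its parent, Gm13456 had 1.27% and 1.42% of the count of Eef1a1 in the dKO libraries, and 0.0163% and 0.0183% in the wt libraries.

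The surroundings of Gm13456 were close to silent in both genotypes. Of the 8 other rows within 500 kb on either side, 5 had no count in any library and none passed the filter. Lrp1b, which encodes a large receptor of the LDL receptor family, had 8 and 11 counts in dKO and 3 and 6 in wt libraries; it was named after its values were seen. The highest count among these 8 rows was 11, so the 1470 and 1242 counts of Gm13456 in dKO libraries stood alone in that stretch.

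Eef1a1 itself, by contrast, overlapped between genotypes. It had 7096 and 5214 CPM in dKO and 7650 and 6086 CPM in wt libraries. The difference was -0.16 on the log2 scale (SE 0.21, 95% interval -0.67 to 0.36, edgeR adjusted p = 0.985 over all 14027 genes tested). The dKO libraries differed from each other by 0.44 and the wt libraries by 0.33 on that scale, more than the genotypes did. With wt replicate 1 left out the difference was 0.01, and with dKO replicate 2 left out it was 0.05, so its sign depended on the libraries kept. Between libraries of the same number the difference was -0.11 (replicate 1) and -0.22 (replicate 2). Replicate 2 lay below replicate 1 in both genotypes. Leaving out 1 library makes replicate numbers uneven between genotypes, so the fits with a library left out mix the 2 differences.

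Since reads of near-identical copies may be divided between rows, Eef1a1 was also summed with its 6 copies. The sum was 7203 and 5304 CPM in dKO and 7662 and 6097 CPM in wt libraries, and its difference was -0.14 on the log2 scale (SE 0.21, 95% interval -0.65 to 0.37, edgeR adjusted p = 0.987). With the same libraries left out it was 0.03 (wt replicate 1) and 0.07 (dKO replicate 2). The copies together amounted to 1.51% and 1.72% of the Eef1a1 count in dKO libraries, against 0.163% and 0.186% in wt libraries. Adding them moved the difference of Eef1a1 from -0.16 to -0.14, and at such shares it could move little. Of the 1745 windows of 50 bases in the Eef1a1 transcript, 688 (39.4%) occur in no other M21 transcript. In genes other than Eef1a1 and the 6 copies, 893 of them occur. Reads counted for those genes, or left uncounted, are not in the sum, and their part was not tested.

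A second Eef1a1 copy had the same direction as Gm13456. In M21, 21 pseudogenes match Eef1a1 better than any other coding transcript, at an identity of at least 80% over at least 50% of their length, and 6 of them have a row of counts; the other 15 are not analysed here. Of the 6, the 4 with at least 20 counts in some library were Gm13456, Gm6767, Gm6548 and Gm5822. Gm6767 (chromosome 16, 51362565 to 51363945 in the table) had 129 and 115 counts in dKO and 15 and 9 in wt libraries. Its level was 7.38 ± 0.749 CPM in dKO and 0.881 ± 0.41 CPM in wt cells (SD, n = 2 each). Its genotypes did not overlap in CPM, with dKO higher, which held for 17.2% of all tested genes.

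The difference of Gm6767 was 3.07 on the log2 scale (SE 0.42), and it did not pass the test over all genes (edgeR adjusted p = 0.217). It passed with no filter on low counts and by DESeq2, and lay between 2.65 and 3.62 in all 11 alternative fits. Gm6767 had 8.78% and 9.26% of the count of Gm13456 in dKO libraries, and 93.8% and 52.9% in wt libraries. It is 96.6% identical to Eef1a1 without gaps and shares 6 of its 47 substitutions with Gm13456. Gm6548 and Gm5822 share 6 with Gm13456 as well, and Gm12912 shares 8. Of its 1332 windows of 50 bases, 986 occur in no other M21 transcript and 27 occur in Gm13456 but not in Eef1a1, beside 43 such windows in Gm5822 and 24 in Gm6548; whether reads of the more abundant copy were counted for Gm6767 was not tested. The 2 other rows within 500 kb of it, looked at after its values were seen, had no counts.

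None of the remaining Eef1a1 copies passed the test. Gm6548 had 109 and 104 counts in dKO and 81 and 110 in wt libraries (log2 difference -0.07, SE 0.25, edgeR adjusted p = 0.995). Gm5822 had 31 and 34 in dKO and 37 and 32 in wt (-0.34, SE 0.37, edgeR adjusted p = 0.981). In CPM, Gm5822 had 1.90 and 2.03 in dKO and 2.89 and 2.10 in wt libraries. Its genotypes thus did not overlap, with dKO lower, which held for 16.4% of all tested genes. Gm12912 and Gm15796 had at most 8 counts in any library and did not pass the filter. Gm13456 thus made up 83.9% and 82.4% of the counts of the 6 copies in dKO libraries, but 10% and 9.88% in wt libraries.

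Copies of the other members with a row of counts were low. M21 has 11 copies of Eef1g, 6 of Eef2, 2 of Eef1d and 1 of Eef1b2 by the same rule, and the 9 of Eef1g, 1 of Eef2 and 1 of Eef1b2 with no row are not analysed here. Both copies of Eef1d had at most 1 count. Of the 2 copies of Eef1g with a row, Gm12461 had no count and Gm4462 had 30 and 26 counts in dKO and 11 and 18 in wt libraries (log2 difference 0.72, SE 0.43, edgeR adjusted p = 0.947). Of the 5 copies of Eef2 with a row, Gm15066 alone reached 20 counts, with 20 and 19 in dKO and 16 and 17 in wt libraries. No copy of Eef1b2, Eef1e1 or Eef2k has a row of counts by this rule.

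**Figure D2:**
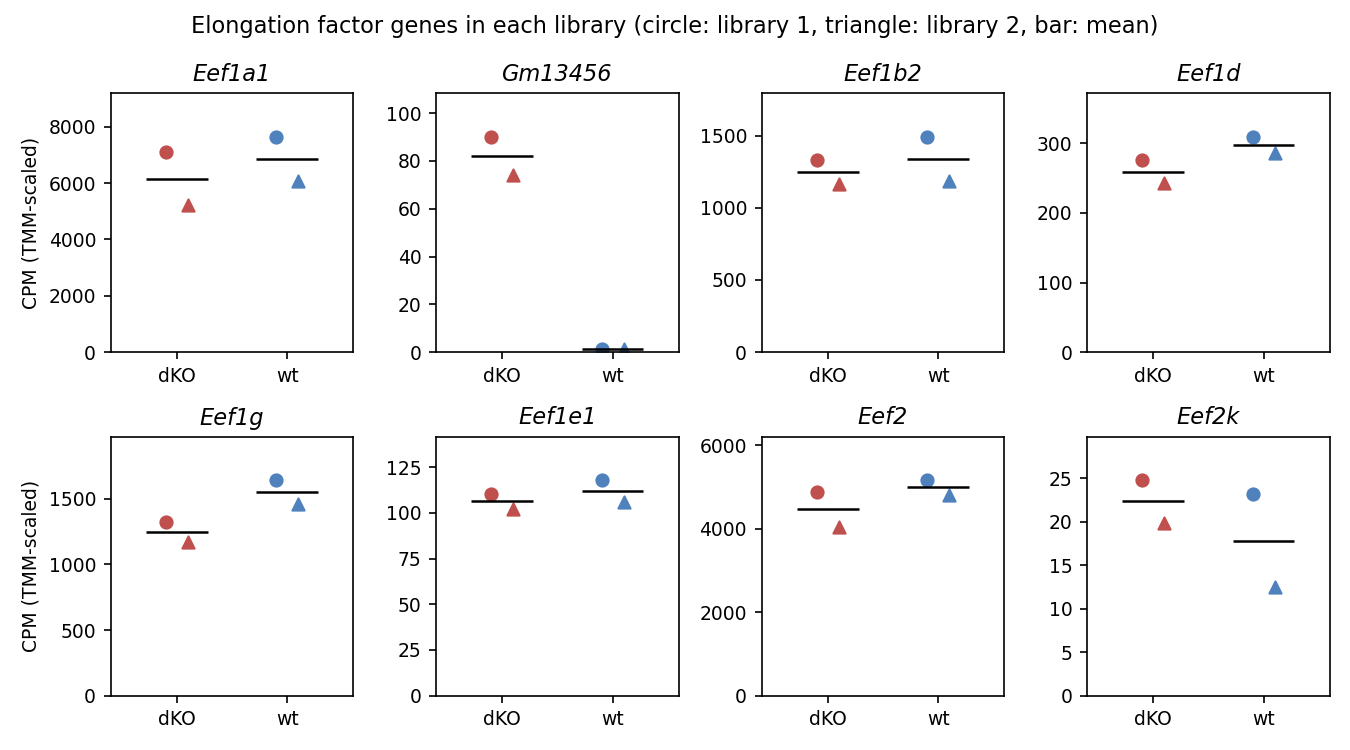
CPM (TMM-scaled, linear axes from 0) of the 8 genes in the dKO and wt libraries; circles are replicate 1, triangles replicate 2 and bars the mean of each genotype. Gm13456 has 90.1 and 74.0 CPM in dKO and 1.25 and 1.12 CPM in wt libraries, while the genotypes overlap for Eef1a1, Eef1b2, Eef1e1, Eef2 and Eef2k.

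Among the subunits of the exchange complex eEF1B, Eef1g had the largest difference. Eef1g encodes eEF1Bγ, a scaffold of the complex with a glutathione transferase-like domain. It had 1323 and 1170 CPM in dKO and 1642 and 1459 CPM in wt libraries. Both dKO libraries lay below both wt libraries. The difference was -0.31 on the log2 scale (SE 0.14, 95% interval -0.66 to 0.03) and did not pass the test (edgeR adjusted p = 0.907). Its 11 alternative fits gave -0.40 to -0.22.

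Eef1d encodes eEF1Bδ, a subunit with nucleotide exchange activity. It had 276 and 243 CPM in dKO and 310 and 287 CPM in wt libraries, again without overlap. The difference was -0.20 on the log2 scale (SE 0.13, edgeR adjusted p = 0.953). The row of Naprt lies on the same strand and overlaps that of Eef1d by 277 bases in M21; Naprt had 650 and 460 counts in dKO and 474 and 237 in wt libraries, beside 4504 and 4072 of Eef1d in dKO and 3966 and 4367 in wt.

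Eef1b2 encodes eEF1Bα, the other exchange subunit. It had 1332 and 1165 CPM in dKO and 1493 and 1183 CPM in wt libraries. The genotypes overlapped, with a difference of -0.10 on the log2 scale (SE 0.16, edgeR adjusted p = 0.989), and of 0.07 without wt replicate 1. Eef1e1 encodes AIMP3, also called p18, an auxiliary protein of the multi-tRNA synthetase complex that is related in sequence to eEF1B subunits. It had 111 and 102 CPM in dKO and 118 and 106 CPM in wt libraries, a difference of -0.08 (SE 0.12, 95% interval -0.38 to 0.23, edgeR adjusted p = 0.988).

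Eef2, which encodes the translocase, had 4878 and 4047 CPM in dKO and 5166 and 4816 CPM in wt libraries. Replicate 1 of dKO lay between the wt libraries and replicate 2 below both. The difference was -0.16 on the log2 scale (SE 0.15, 95% interval -0.54 to 0.21, edgeR adjusted p = 0.981). Eef2k, which encodes the kinase that inhibits eEF2, had 24.8 and 19.9 CPM in dKO and 23.2 and 12.5 CPM in wt libraries, with a difference of 0.33 (SE 0.32, 95% interval -0.46 to 1.12, edgeR adjusted p = 0.981). The wt libraries of Eef2k were 0.89 apart on the log2 scale, and the difference was 0.83 with wt replicate 1 left out and -0.05 with wt replicate 2 left out.

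Over the 7 genes besides Gm13456, 6 had a negative and 1 a positive log2 difference, with a median of -0.16 beside -0.002 for all tested genes. The median absolute difference of all tested genes was 0.16, so differences of this size were common in the table. The share of negative values among all tested genes was not computed. With genotype as the only term, none passed the test at an edgeR adjusted p of 0.05, and none did by DESeq2 or limma-voom; over all genes 12 of 14027 passed (0.0855%), 5 higher (0.0356%) and 7 lower (0.0499%) in dKO cells. None had an unadjusted p under 0.05, beside 782 of all tested genes (5.57%). The genotypes did not overlap for 2 of the 7, Eef1d and Eef1g, both lower in dKO; this held for 33.6% of all tested genes, 17.2% higher and 16.4% lower in dKO. For 5 of the 7, libraries of 1 genotype differed by more than the genotypes did. Between libraries of the same number, the difference of each of the 7 kept its sign. The share of all tested genes was not computed for either count, so neither is a result about these genes. All 7 also had a lower CPM in replicate 2 than in replicate 1 of both genotypes, which held for 36.4% of all tested genes.

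**Figure D3:**
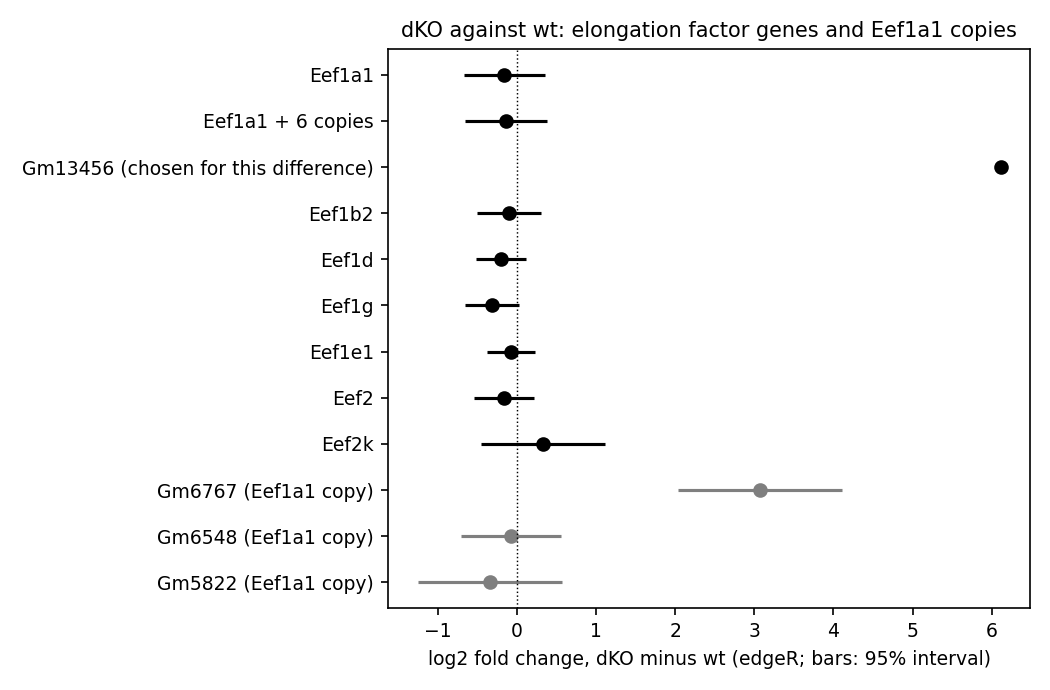
Log2 fold change, dKO minus wt, from the edgeR fit over 14027 genes; points are estimates and bars 95% intervals, with Eef1a1 copies in gray. Gm13456, at 6.11, is drawn without an interval because it was chosen for this difference; the intervals of the other 7 genes and of Eef1a1 summed with its copies include 0, and that of Gm6767 (3.07) does not, although its adjusted p is 0.217.

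Per length, the order of the genes was nearly the same in both genotypes. CPM were divided by the length of all annotated exons in kb (M21). Eef1a1 had 2469 ± 534 in dKO and 2755 ± 444 in wt cells (SD, n = 2 each), and Eef2 had 1342 ± 177 in dKO and 1501 ± 74.5 in wt. Eef1b2 (493 ± 46.7 in dKO and 528 ± 86.7 in wt) and Eef1g (479 ± 41.8 in dKO and 596 ± 49.6 in wt) overlapped in both genotypes. Compared within each library, Eef1b2 was above Eef1g in dKO replicates 1 (526 against 509) and 2 (460 against 450). It was below Eef1g in wt replicates 1 (590 against 631) and 2 (467 against 561). This order was not tested. Far below them stood Eef1d (40.0 ± 3.66 in dKO and 46.0 ± 2.50 in wt), Eef1e1 (32.6 ± 1.88 in dKO and 34.4 ± 2.58 in wt) and Eef2k (3.02 ± 0.465 in dKO and 2.41 ± 1.02 in wt).

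Gm13456 changed place in that order. At 60.1 ± 8.36 CPM per kb in dKO cells it stood above Eef1d and Eef1e1, and at 0.867 ± 0.069 CPM per kb in wt cells it was the lowest of the 8. With the longest coding transcript as the length, Eef1d had 91.3 ± 8.35 in dKO and 105 ± 5.71 in wt cells, so its place relative to Gm13456 in dKO cells depends on the length used. Eef1g was then above Eef1b2 in dKO cells as well, at 669 ± 58.2 and 644 ± 61.0 CPM per kb. The order of these genes in dKO cells thus also depends on the length used.

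The 5 genes nearest to Gm13456 in pattern (Euclidean distance of mean-centred log2 CPM over the 4 libraries, among genes with an average log2 CPM of at least 2) were Apoa2, Pcna-ps2, Hal, Nod1 and Nlrp4f, at distances of 1.30 to 2.92. They are listed by the same contrast that chose Gm13456 and get no test here. Apoa2, which encodes an apolipoprotein of high-density lipoprotein, had 7.60 and 7.45 CPM in dKO and 0 and 0.197 CPM in wt libraries. Pcna-ps2, a pseudogene of the replication clamp gene, had 39.1 and 41.7 CPM in dKO and 0.0781 and 0.0657 CPM in wt libraries. Hal, which encodes histidine ammonia-lyase, had 10.2 and 17.2 CPM in dKO and 0.937 and 0.525 CPM in wt libraries. Nod1, which encodes a sensor of bacterial peptidoglycan, had 47.3 and 30.3 CPM in dKO and 2.81 and 2.63 CPM in wt libraries. Nlrp4f, a gene of the NLR family, had 48.6 and 101 CPM in dKO and 5.47 and 9.26 CPM in wt libraries. None of these 5 genes lies on chromosome 2 with Gm13456.

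The genes nearest to Eef1a1 were much closer, at distances of 0.022 to 0.033. They were Fgfr3, Ifnar1, Itpkc, Ccm2 and Npm1. Npm1, which encodes nucleophosmin and has a TOP messenger RNA, had 3209 and 2305 CPM in dKO and 3473 and 2704 CPM in wt libraries. Its difference was -0.16 on the log2 scale (SE 0.21), with replicate 2 below replicate 1 in both genotypes. Npm1 was the farthest of the 5. Fgfr3 had -0.15, Ifnar1 -0.13, Itpkc -0.17 and Ccm2 -0.15. All 5 were chosen because their values lie near those of Eef1a1. Their likeness to Eef1a1, in replicates and in genotypes, thus follows from the choice, and they get no test here.

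Genes that modify or regulate the elongation factors were compared in the same fit. Of the 6 listed for the eEF1A paralog and methyltransferases, 3 were tested and none passed; their median was 0.15 (-0.03 without dKO replicate 1). Eef1a2, the paralog of muscle and neurons, had at most 3 counts in any library, close to the limit of detection. All 8 genes of diphthamide synthesis and eEF2 methylation were tested, 1 positive and 7 negative, and none passed (median -0.13, and -0.06 with dKO replicate 2 left out); diphthamide is the modified histidine of eEF2 that diphtheria toxin attacks. Dph6 had -0.03 and Dph2 -0.18 on the log2 scale, and both values were positive in some alternative fits.

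None of the 13 genes that act on eEF2K or on eEF2 phosphorylation passed, with 9 positive and 4 negative values and a median of 0.11 (0.009 with wt replicate 2 left out and 0.20 with wt replicate 1 left out). Calm2, which encodes the calmodulin that activates eEF2K, had 527 and 503 CPM in dKO and 443 and 429 CPM in wt libraries (log2 difference 0.24, SE 0.11, edgeR adjusted p = 0.907). Ppp2ca, the catalytic subunit of the phosphatase PP2A, had a log2 difference of 0.11. Of 4 genes for eIF5A and its hypusine modification none passed (median -0.04, and 0.11 without wt replicate 1). Eif5a itself, which helps ribosomes through difficult peptide bonds, had 1352 and 1223 CPM in dKO and 1473 and 1139 CPM in wt libraries (-0.02, SE 0.17).

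In the next lists, of neighbouring steps of translation, no gene passed, which does not show that these genes were unchanged. None of the 11 genes of the multi-tRNA synthetase complex with valyl-tRNA synthetase passed (median -0.02, from -0.08 to 0.11 over the alternatives), with Eprs at 0.13 and Lars at 0.18 on the log2 scale. Of the 11 values, 5 were positive and 6 negative. The largest in size was that of Qars, with 172 and 169 CPM in dKO and 194 and 235 CPM in wt libraries. Its log2 difference was -0.33 (SE 0.14, edgeR adjusted p = 0.888). None of 5 mitochondrial elongation factor genes passed (median -0.09, and 0.04 without dKO replicate 2), with Gfm1 at -0.12 and Gfm2 at 0.14. None of 8 genes of related GTPases, ribosome rescue and selenocysteine insertion passed (median -0.04, and 0.04 without dKO replicate 2), with Abce1 at -0.09 and Hbs1l at 0.08. None of 3 termination factor genes passed (median 0.09, from 0.01 with wt replicate 2 left out to 0.19 with wt replicate 1 left out), with Etf1, the stop codon reader, at 0.09 and Gspt1 at 0.05.

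Among 32 initiation factor genes, 1 fell and none rose, beside 0.0499% of all tested genes that fell and 0.0356% that rose. Eif2s3y, the Y-linked gene for the γ subunit of eIF2, had 26.9 and 26.8 CPM in dKO and 87.6 and 82.6 CPM in wt libraries (log2 difference -1.66, SE 0.13, edgeR adjusted p = 0.0288; 0.0512 by limma-voom). Its X-linked counterpart Eif2s3x had 423 and 383 CPM in dKO and 424 and 382 CPM in wt libraries, a log2 difference of -0.0004. The list had a median of -0.06 (0.03 without dKO replicate 2), with Eif4g2 at 0.18 and Eif4a1 at 0.01.

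The 8 other TOP messenger RNAs gave no call, with 1 positive and 7 negative values and a median of -0.13 (-0.21 with wt replicate 2 left out and -0.05 with dKO replicate 2 left out); Rack1 had -0.10. Their summed level was 9749 and 8407 CPM in dKO and 10581 and 9028 CPM in wt libraries, overlapping between genotypes and lower in replicate 2 of each. Over the 95 tested genes of these 10 lists, 0 rose and 1 fell (0.0356% and 0.0499% of all tested genes), 42 had positive and 53 negative values, and the median was -0.02. The lists were written with earlier results of these data known, and the counts are descriptions.

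**Figure D4:**
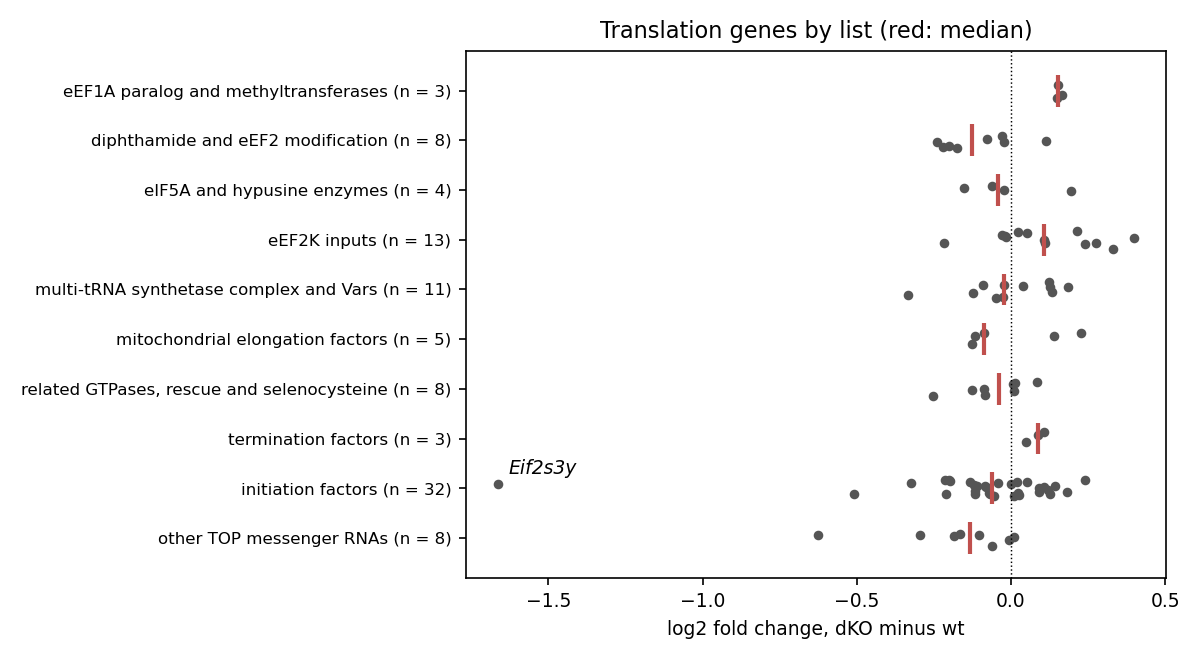
Log2 fold change, dKO minus wt, of the tested genes in 10 lists of translation genes; each gray point is a gene, placed with vertical jitter, and each red line the median of its list. Most genes lie within 0.5 of 0, and Eif2s3y lies at -1.66.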

How the data were processed

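The authors deposited whole-number counts of reads for Ensembl genes in 4 libraries, not normalized. Per the labels' protocols, total RNA came from Trizol extraction and libraries from the TruSeq RNA kit of Illumina. The submitters' processing notes list TopHat2 2.0.6, TopHat and HTSeq. The build, annotation, read length and strand setting behind the counts: not given in the sources used here. Symbols, biotypes, exon lengths and transcript sequences came from GENCODE M21 (GRCm38) by gene ID; 32919 of 37991 rows had a symbol.

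Genes passing filterByExpr entered a robust quasi-likelihood F test of genotype alone in edgeR 4.0.16 (R 4.3.3), with TMM factors. P-values were adjusted by Benjamini-Hochberg across 14027 genes, and calls made at 0.05. Differences are dKO minus wt, and SEs come from the F statistic. Exact permutation of a single value, 2 libraries against 2, cannot go below p = 0.333. Every pair of libraries differed by more than sampling noise (chi-square over its degrees of freedom 13.8 to 33.9).

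Copies were found with blastn 2.17.0. Members and lists were chosen with earlier results of these data known. The named genes were all members, copies with at least 20 counts, tested genes within 500 kb of Gm13456, the 5 genes nearest in pattern to Gm13456 and to Eef1a1, and from each list the genes past the threshold and the 2 with the highest CPM; any other gene was named after its values were seen. Alternatives were DESeq2 1.42.0 size factors and Wald test, total counts, other filters, a replicate block, limma-voom (limma 3.58.1), each library left out, an adjusted p of 0.01 and copies of at least 90% identity.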

Additional observations from a re-analysis of the deposited data

How the results depend on the processing

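The count of 12 genes past the threshold was 5 by limma-voom, 80 with no filter, 92 by DESeq2, 18 to 27 when a library was left out, and 4 when the adjusted p had to be under 0.01; in each of these runs none of the 7 genes besides Gm13456, which was chosen for its difference, was called. The labels give both genotypes the same replicate numbers but do not say what they share. Deviations of libraries with the same number correlated across genes (r = 0.65), though the design names no pairing. The chi-square over its degrees of freedom was 13.8 between the replicates 1 of the genotypes and 16.6 between the replicates 2. It was larger within a genotype, at 21.6 for dKO and 21.5 for wt. The test of genotype alone counts such a replicate difference as noise, so a high adjusted p there does not show that a gene was unchanged. With a replicate block 1299 genes (9.26%) were called, and the count over the 8 genes, which holds Gm13456 by its choice, was 2 through Eef1g (-0.32, edgeR adjusted p = 0.0276); the other 6 were not called (adjusted p 0.127 to 0.699). Gm6767 was called there too. Eef1a1 summed with its copies was not called in any alternative, and ranged from -0.37 to 0.07 with 1 library left out; all 6 copies have an identity of at least 90%, so that setting changed nothing. Leaving out a library leaves 1 sample in a genotype, which is then assumed to vary like the other. It also makes replicate numbers uneven between genotypes. All values given with 1 library left out, for genes, sums and list medians, therefore mix the genotype difference with any difference between replicates. The alternatives for named genes outside the 8 were added after the data were seen. Depth limits the low copies, whose wt levels rest on 9 to 17 counts for Gm13456 and Gm6767.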
